A study of Mus musculus with 12 samples.

Results

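Single myofibers were compared with pools of 20 myofibers across all genes, using the 3 libraries of each kind out of the 12 libraries of the series. All were made from the extensor digitorum longus, a fast muscle of the lower leg, of C57BL/6 mice with no further genotype or treatment named in the labels. The SMART-Seq HT kit, which copies and amplifies RNA from very small inputs, was used for all 6. Per the labels each single fiber was lysed directly in the lysis buffer of that kit. How the pools were lysed, the number, age and sex of the mice, and any batch or date are not given there. The libraries are called fiber 1 to 3 and pool 1 to 3 after the numbers in their titles. A library of the first kind is the RNA of 1 cell, and 3 such cells stand for the group. Nothing says that libraries of a group came from separate mice, so p-values measure only the spread between these libraries, which may be technical.

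A myofiber is a syncytium with many nuclei in 1 cytoplasm, filled with sarcomeres built on myosin heavy chains. Fast fibers of the mouse use the chains encoded by Myh4, Myh1 and Myh2, and slow fibers use Myh7. Satellite cells, the stem cells of muscle, lie under the basal lamina of the fiber, and capillaries run along its surface. A dissected fiber can therefore carry other cells with it.

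The libraries held 12685900 to 27787120 counted reads in single fibers and 4702823 to 15345348 in pools. Olfactory, vomeronasal and taste receptor genes, named for their use in sense organs, served as a measure of reads spread over the genome. Use of some of them by muscle is not excluded. Of the 1506 such genes, thinned to an equal depth of 4702823 reads, 12.8%, 1.59% and 5.51% had a read in fibers 1 to 3, against 71.2%, 97.3% and 88.3% in pools 1 to 3. They took 70.8, 9.43 and 22.5 reads per 1000000 (RPM) in the single fibers, against 1027, 8928 and 1798 in the pools. All 3 pools lay above all 3 fibers, and pool 2 stood apart from the other pools. The predicted gene Gm10800 held 0.0179%, 0.00133% and 0.0190% of reads in the fibers, against 0.306%, 20.9% and 1.05% in the pools. It is shown here with Gm10801, Gm10722 and Gm21738 because together they mark where the extra reads of pool 2 lay. Capitals mark the longest run, 42 bases, that the 4 transcript models of GENCODE vM21 (GRCm38) share, and up to 40 bases on each side are in lower case.
Gm10800 (chr2:98666547-98667301, minus strand): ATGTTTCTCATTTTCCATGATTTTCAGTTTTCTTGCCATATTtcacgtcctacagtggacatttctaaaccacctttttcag
Gm10801 (chr2:98662237-98664083, plus strand): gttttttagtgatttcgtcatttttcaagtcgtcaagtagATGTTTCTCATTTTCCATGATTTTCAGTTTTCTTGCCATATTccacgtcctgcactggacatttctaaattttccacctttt
Gm10722 (chr9:3000922-3002330, plus strand): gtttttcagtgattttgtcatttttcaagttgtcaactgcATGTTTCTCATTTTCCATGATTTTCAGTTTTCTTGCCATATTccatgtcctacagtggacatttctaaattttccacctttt
Gm21738 (chr14:19415857-19418930, minus strand): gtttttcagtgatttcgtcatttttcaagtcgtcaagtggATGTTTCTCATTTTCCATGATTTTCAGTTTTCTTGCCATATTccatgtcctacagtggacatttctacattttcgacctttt
The run occurs, on either strand, in 11 of 55450 annotated genes, or 0.0198%. Those 11 genes took 0.0232%, 0.00163% and 0.0237% of reads in the fibers, against 0.403%, 29.1% and 1.30% in the pools. Near-identical copies share such reads, so values of single members are uncertain.

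**Figure D1:**
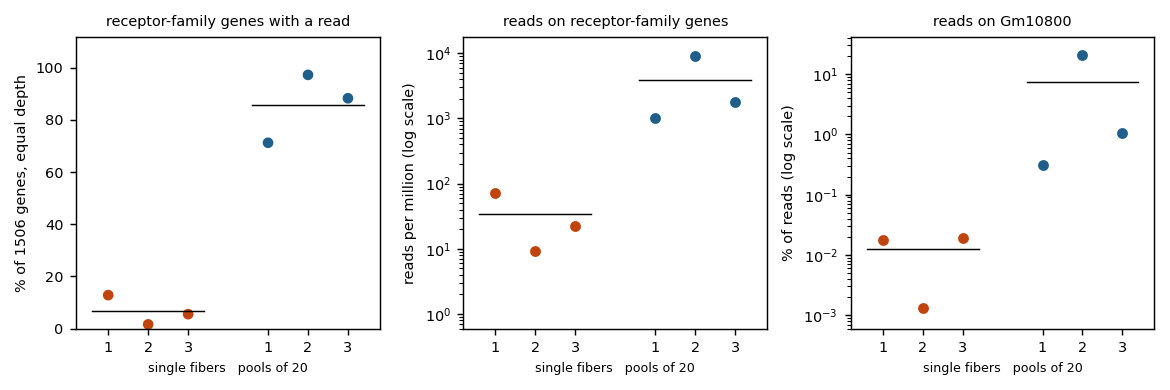
Reads on receptor-family genes and on Gm10800 in each library, with the group mean as a line. The share of 1506 receptor-family genes with a read at equal depth is on a linear axis. Their reads in RPM and the percent of reads on Gm10800 are on log axes. Single fibers 1 to 3 are on the left and pools 1 to 3 on the right; every pool lies above every fiber, and pool 2 is the highest pool at 8928 RPM and 20.9%.

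Across 16978 genes with enough reads, 6123 were called different, or 36.1%. Of these, 1446 were higher and 4677 lower in single fibers than in pools (edgeR quasi-likelihood test, Benjamini-Hochberg adjusted p under 0.05), or 8.52% and 27.5% of the genes tested. Counts of calls in the gene lists below are to be read against these shares. Levels are given as CPM, counts per 1000000 reads, after scaling of the library totals by TMM, a method that aligns the bulk of genes between libraries. The median log2 fold change of all genes, single fibers over pools, was -0.74, and changes are to be read against it. That median was -1.48, -1.30 and -1.66 without fiber 1, 2 or 3, -2.03 without pool 1 and -0.48 without pool 2. It was -1.57 with scaling on protein-coding genes of 10 CPM or more, -2.87 with no filter on low counts, and 0.02 among genes of at least 10 CPM in 3 libraries. Of the genes called lower, 3337 had a read density in the pools no higher than the 99th percentile of receptor-family genes there, and 1340 lay above it. Of the receptor-family genes themselves 403 could be tested and 372 were called lower. The 1446 genes called higher all exceeded the corresponding density in single fibers. That density was only 2.99 reads per kilobase of exon, against 29.9 in the pools. The filter on low counts can itself lift a gene above it, so nothing is drawn from this count. Without pool 2 the counts were 919 higher and 3012 lower. The lower count was 8914, 7504 and 8487 without fiber 1, 2 or 3 and 9174 without pool 1, while the higher count lay between 1362 and 1540 there.

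Markers of blood vessels were nearly absent from single fibers and present in every pool. Of 16 endothelial markers, 15 were called lower in single fibers and none higher, with a median log2 fold change of -7.31 (-6.70 with genes of 0 reads set at their bound). Fabp4, a fatty acid carrier of capillary endothelium, had 1, 0 and 5 reads in the fibers, against 214, 127 and 5239 reads in the pools. Its log2 fold change was -9.32 ± 1.33 (SE; edgeR adjusted p = 0.00304). Cdh5, the endothelial cadherin, had 2, 0 and 4 reads in the fibers, against 67, 89 and 1332 in the pools. Flt1, a receptor for vascular endothelial growth factor, had 10, 0 and 1 reads in the fibers, against 112, 174 and 1528 in the pools. Pool 3 was the highest pool for all 16 markers. For 14 of the 16 markers, against 40% of all genes tested, every fiber lay below every pool. Such separation goes with being called, as 4646 of the 4677 genes called lower had it. A gene near 0 reads in the fibers passes the filter on low counts through the pools alone. Its separation is then largely fixed by the filter, so nothing is drawn from the count of 14. The same holds for such members of the marker lists below. Fewer cells of a type cannot be told apart here from less RNA per cell. Among the 15 called markers the exception was Ly6c1, a surface protein of capillary endothelium and leukocytes. It stood at 6.68, 0 and 0 CPM in the fibers and 11.9, 5.76 and 85.8 CPM in the pools. Its call was lost without pool 2 and without pool 3 (edgeR adjusted p = 0.122 and 0.134).

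The genes with the greatest falls included Gpihbp1, Aqp1 and Fabp4, which are members of that list and counted above, and genes outside it. Apold1, an endothelial early response gene, Gpihbp1, which carries lipoprotein lipase to the capillary lumen, and Timp4, an inhibitor of matrix metalloproteinases, had no read in any single fiber. Against a floor of 3 reads over the group they were at least 1025-fold, 535-fold and 414.7-fold lower. Apold1 stood at 13.2, 11 and 119 CPM in pools 1 to 3, again highest in pool 3. The adhesion receptor Adgrf5, the water channel Aqp1 and the lectin Cd93 each had 1 read in the 3 fibers together. Their pooled ratios, pools over fibers, had 95% counting intervals starting at 377, 388 and 354. Ctla2a, a protease inhibitor, had 1 read and Ptprb, an endothelial phosphatase, had 2. Esam, a junction molecule of endothelium, was likewise at 0 in the fibers, at least 292-fold lower.

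Red cell and pericyte genes were often called lower too, and connective tissue genes seldom. The beta-globin gene Hbb-bs had 0, 0 and 3 reads in the fibers, against 138, 163 and 4320 in the pools, and Hba-a1, an alpha-globin gene, stood at 0, 0.221 and 0 CPM against 3.51, 2.49 and 62.6 CPM. Globin genes are near-identical copies and their reads may be split between them. Of 8 erythroid markers 6 passed the filter on low counts, which a gene can pass through the pools alone, and 4 were called lower. Rgs5, a pericyte gene, stood at 0.145, 0.0552 and 0.791 CPM in the fibers and at 13, 12 and 149 CPM in the pools (log2 fold change -7.55 ± 1.17, SE; edgeR adjusted p = 0.00409). Of 10 pericyte and smooth muscle markers 9 could be tested and 7 were called lower, or 4 without pool 2. Abcc9, also a subunit of the potassium channel of muscle, ran the other way at 136, 143 and 243 CPM in fibers and 101, 37.2 and 95.1 CPM in pools (edgeR adjusted p = 0.122). Fibroblast genes mostly overlapped between the groups, and 2 of 16, Postn and Dpt, were called lower. That was 12.5%, against 27.5% of all genes. Every fiber lay below every pool for 3 of the 16, against 40% of all genes, though all 16 log2 fold changes were negative. Col3a1, a fibrillar collagen, stood at 69.8, 3.70 and 9.84 CPM in the fibers against 32.5, 26.6 and 163 CPM in the pools, so fiber 1 exceeded pools 1 and 2. It was called lower without fiber 1 or pool 1 (edgeR adjusted p = 0.00729 and 0.0246). The call of Dpt was lost without fiber 2, fiber 3, pool 2 or pool 3 (edgeR adjusted p between 0.056 and 0.448). The fibroblast count was 14 without fiber 1, 11 without pool 1 and 1 without pool 2.

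The vessel result was set against the reads spread over the genome. All 15 endothelial genes called lower exceeded the receptor-family density in the pools, as did the 4 erythroid genes and 7 pericyte genes. With the receptor-family read density subtracted from every library, 12 of 15 endothelial genes that could be tested were called lower, with a median of -7.91. By the same step, 4 of 4 erythroid genes, 4 of 8 pericyte genes and 1 of 15 fibroblast genes that could be tested were called lower. Summed over the list, endothelial markers stood at 13.9, 1.99 and 4.57 CPM in fibers 1 to 3, against 115, 161 and 836 CPM in pools 1 to 3 (exact permutation p = 0.1, two-sided, the smallest that 3 against 3 can give). For tendon, adipocyte, lymphocyte and granulocyte lists no gene called lower exceeded that density: Col12a1, Fmod and Mkx, Pparg and Adipoq, and Ptprc and Cd4. With the density subtracted, 6 of these 7 had too few reads to be tested, and Col12a1 was not called (edgeR adjusted p = 0.118). Col12a1 and Ptprc were also lost without pool 2 (edgeR adjusted p = 0.102 and 0.054), and Adipoq without fiber 2 or fiber 3 (0.056 and 0.093). Lymphocyte calls numbered 5 or 6 without any 1 fiber or pool 1 and 1 without pool 2, and adipocyte calls 1 without fiber 2 and 4 without pool 1.

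**Figure D2:**
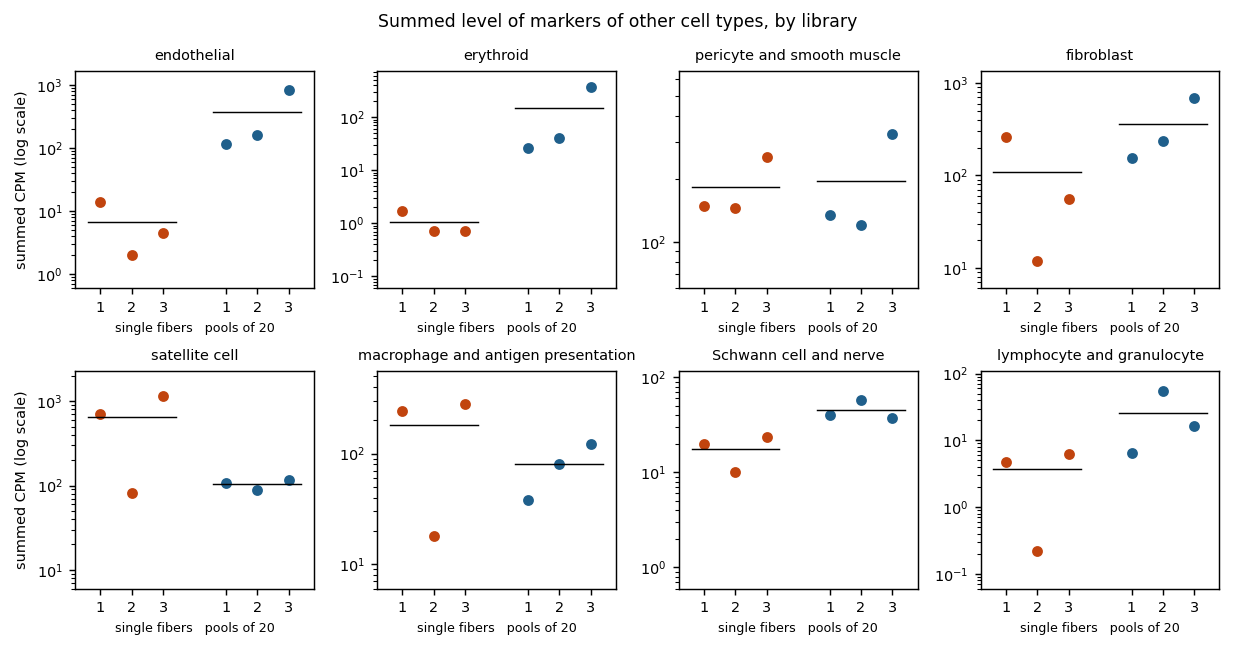
Summed CPM of 8 marker lists in each library on log axes, single fibers 1 to 3 on the left and pools 1 to 3 on the right, with the group mean as a line. Endothelial, erythroid, Schwann cell and lymphocyte sums do not overlap between the groups, the last by a narrow gap. Satellite cell and macrophage sums are highest in fibers 1 and 3, where Myod1 and Cd68 make up most of them.

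Satellite cell markers did not move together. Of 11, 7 were called lower in single fibers and 2 higher, with a median log2 fold change of -3.88. Pax7, the transcription factor that defines satellite cells, stood at 0.290, 0.717 and 0.176 CPM in the fibers and 4.21, 8.91 and 5.58 CPM in the pools (log2 fold change -3.92 ± 1.00, SE; edgeR adjusted p = 0.00906). Heyl, an effector of Notch signalling, was at 0.508, 0 and 0 CPM against 3.51, 9.04 and 7.27 CPM, and its call was lost without pool 2 (edgeR adjusted p = 0.059). Myod1, the myogenic regulator, went the other way with 545, 18.2 and 1004 CPM in the fibers, against 11.6, 7.46 and 10.6 CPM in the pools. Its log2 fold change was 5.72 ± 1.11 (SE; edgeR adjusted p = 0.00685), and fiber 2 came close to the pools while fibers 1 and 3 lay far above them. Sdc4, a membrane proteoglycan, was called higher as well, except without fiber 1 (edgeR adjusted p = 0.061). With the receptor-family density subtracted, 10 satellite cell markers could be tested, and 4 were called lower and 2 higher. The lower count was 4 without fiber 3 and 3 without pool 2.

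Macrophage and antigen presentation genes also gave calls in both directions. Cd68, a lysosomal membrane protein abundant in macrophages, had 2928, 23 and 2984 reads in the fibers, against 31, 32 and 56 in the pools. It was called higher (log2 fold change 5.49 ± 1.20, SE; edgeR adjusted p = 0.00727), although fiber 2, at 1.27 CPM, lay below every pool, and was not called without pool 2 (edgeR adjusted p = 0.057). The class II genes H2-Ab1 and Cd74 were lower, H2-Ab1 at 0 in each fiber against 0.937, 2.88 and 21.0 CPM in the pools. Of 17 markers 10 could be tested, and 6 were called lower, 3 of them above the receptor-family density. The lower count was 11 to 13 without any 1 fiber or pool 1. With the density subtracted it was 1, of 5 that could then be tested. Of 14 Schwann cell and nerve markers 9 could be tested and 5 were called lower. That count was 8 or 9 without any 1 of the fibers. With the density subtracted it was 1, of 4 that could then be tested.

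**Figure D3:**
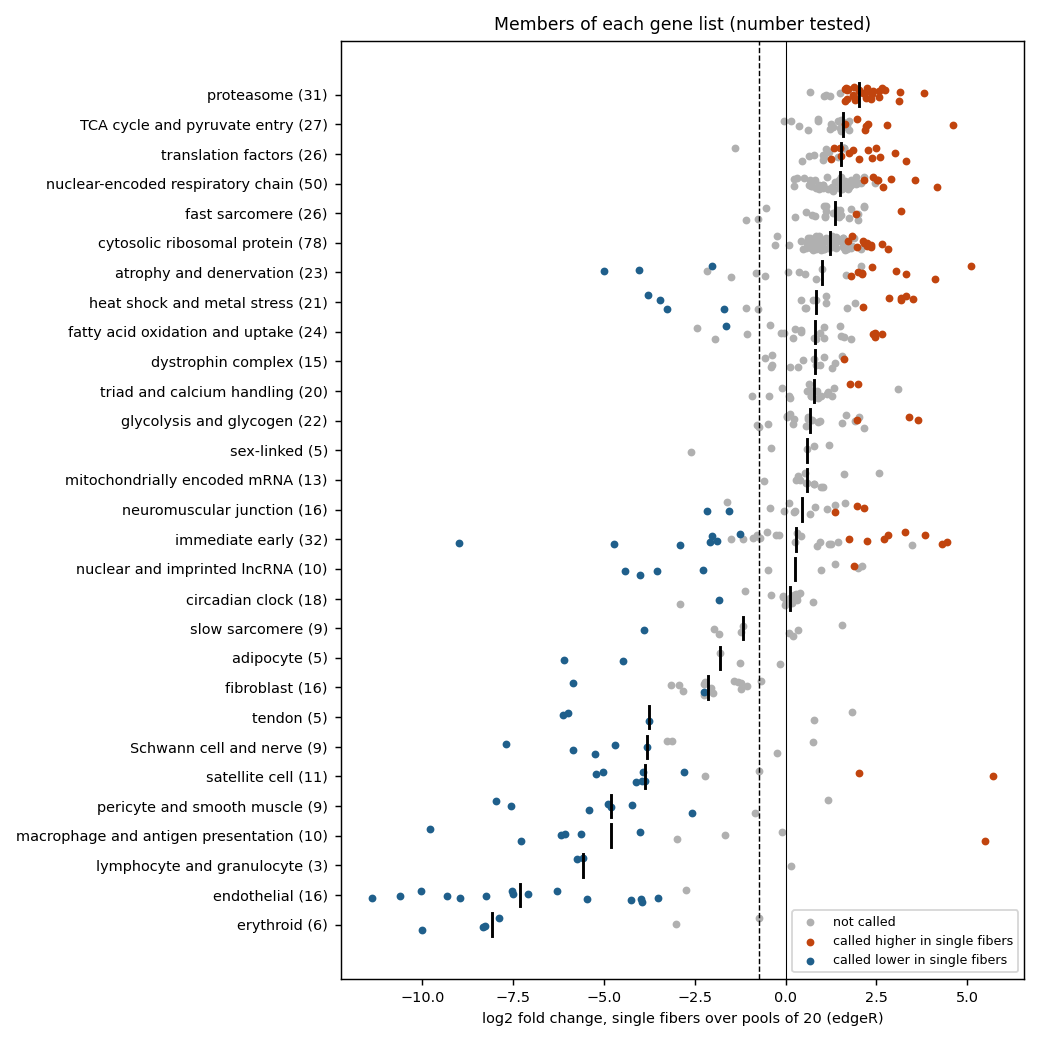
Log2 fold change, single fibers over pools of 20, of each tested member of 29 gene lists, ordered by the list median (black tick); the dashed line is the median of all genes at -0.74. Proteasome genes sit farthest right, with 26 of 31 called higher, and endothelial and erythroid genes farthest left.

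Proteasome genes were higher in single fibers as a body. The proteasome is the barrel-shaped protease that degrades ubiquitinated proteins, made of a core of alpha and beta subunits and a regulatory cap. All 31 subunits on the list could be tested, 26 were called higher and none lower, against 8.52% of all genes called higher. Their median log2 fold change was 2.01, and for all 31 the 3 fibers lay above the 3 pools, which held for 16.5% of genes. Psma3, an alpha subunit, stood at 512, 947 and 503 CPM in the fibers and at 137, 51.1 and 143 CPM in the pools (log2 fold change 2.56 ± 0.71, SE; edgeR adjusted p = 0.013), a call lost without fiber 2 or fiber 3 (edgeR adjusted p = 0.063 and 0.054). Psmb7, a catalytic beta subunit, stood at 34.5, 185 and 30.6 CPM in the fibers and at 5.50, 5.76 and 6.48 CPM in the pools (log2 fold change 3.81 ± 0.70, SE; edgeR adjusted p = 0.00608). Fiber 2 was the highest fiber for 27 of the 31 and pool 2 the lowest pool for 30. The count was 10 without fiber 2, 15 without fiber 3 and 17 without fiber 1, with medians between 1.95 and 2.59. It was 15 with the strict filter on low counts and 13 with the receptor-family density subtracted. The median was 1.27 without fiber 2 and pool 2 together.

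Genes of protein synthesis shifted the same way with fewer calls. Of 26 translation factors, 13 were called higher and none lower, with a median log2 fold change of 1.52. Eef1a2, the elongation factor form of mature muscle, had a log2 fold change of -1.39 (edgeR adjusted p = 0.0623) and was called lower without pool 2 (0.0256). Pabpc1, which binds poly(A) tails, stood at 708, 83.0 and 701 CPM in the fibers and 62.6, 27.2 and 58.5 CPM in the pools (log2 fold change 3.33 ± 0.82, SE; edgeR adjusted p = 0.0079). Eif4a2, an RNA helicase of initiation, was instead highest in fiber 2, at 109, 378 and 127 CPM against 34.4, 13.2 and 28.1 CPM in the pools. The count was 4 without fiber 3, 5 without fiber 2 and 6 without fiber 1. Among 78 cytosolic ribosomal protein genes tested, of 79 listed, 12 were called higher and none lower, at a median of 1.23. Rpl10, of the large subunit, stood at 550, 362 and 295 CPM in the fibers and 65.8, 21.1 and 82.6 CPM in the pools (log2 fold change 2.83 ± 0.68, SE; edgeR adjusted p = 0.00747). Rps6, a phosphorylated protein of the small subunit, stood at 121, 148 and 53.1 CPM against 15.2, 4.45 and 31.3 CPM. In 57 of the 78 every fiber lay above every pool, against 16.5% of all genes. Pool 2 was the lowest pool for 77 of the 78. The ribosomal count was 4 without fiber 1, 5 without fiber 2 or fiber 3, and 30 with DESeq2. Many ribosomal protein genes have near-identical processed copies that can take their reads.

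Genes of mitochondrial metabolism were led by a small group. Mpc1, a subunit of the carrier that brings pyruvate into mitochondria, stood at 127, 383 and 102 CPM in the fibers and 9.48, 5.24 and 10.2 CPM in the pools. Its log2 fold change was 4.61 ± 0.70 (SE; edgeR adjusted p = 0.00378). Of 27 genes of the citric acid cycle and pyruvate entry, 7 were called higher and none lower, with a median of 1.57. Sdhd, a subunit of succinate dehydrogenase, stood at 322, 1091 and 246 CPM against 115, 19 and 106 CPM, a call lost without fiber 2 (edgeR adjusted p = 0.087) and without pool 2 (edgeR adjusted p = 0.053). Of 50 nuclear-encoded respiratory chain genes, 8 were called higher and none lower, with a median of 1.50. Uqcrc2, of complex III, stood at 94.6, 613 and 96.4 CPM in the fibers and 21.7, 6.42 and 16.7 CPM in the pools (log2 fold change 4.16 ± 0.85, SE; edgeR adjusted p = 0.00727). Cox5a, of complex IV, stood at 517, 1909 and 348 CPM against 94.0, 13.8 and 125 CPM. Fiber 2 was the highest fiber for all 50 respiratory chain genes and all 27 of the other list. Pool 2 was the lowest pool for all 50 and for 26 of the 27. The respiratory chain count was 3 to 5 without any 1 of the fibers, pool 2 or pool 3. The citric acid cycle count was 2 without fiber 2, 3 without pool 3 and 4 without fiber 1 or fiber 3. Without fiber 2 and pool 2 together the respiratory chain median was 0.19.

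Transcripts of the mitochondrial genome were not called in either direction. The 13 mitochondrial mRNAs summed to 90930, 299753 and 98988 CPM in the fibers and 170082, 42539 and 127731 CPM in the pools. The groups overlapped, with fiber 2 highest of all and fibers 1 and 3 between pool 2 and the other pools. Their median log2 fold change was 0.59, and -0.48 without fiber 2 and pool 2 together. Of 24 tested genes of fatty acid oxidation and uptake, 4 were called higher, or 8 without pool 1. They were Fabp3, the muscle fatty acid carrier, the electron carrier gene Etfa, the dehydrogenase gene Acadvl and Ppargc1a, a coactivator of mitochondrial biogenesis. Ppargc1a stood at 121, 36.6 and 225 CPM against 30.2, 14.9 and 24.8 CPM. Without fiber 2 the calls of Fabp3, Etfa and Acadvl were lost (edgeR adjusted p = 0.247, 0.162 and 0.059), as they were without pool 2 (0.121, 0.104 and 0.055). Ucp3, a mitochondrial carrier, was called lower at 5.66, 28.2 and 10.4 CPM against 60.9, 20.8 and 57.1 CPM, and this was lost without any 1 of fiber 1, fiber 3 and the 3 pools (edgeR adjusted p between 0.052 and 0.398). The call of Ucp3 was also lost with the receptor-family density subtracted (edgeR adjusted p = 0.0534). Lpl, the lipase held on capillary walls, stood at 7.48, 110 and 12.9 CPM in the fibers and 160, 50.4 and 294 CPM in the pools (edgeR adjusted p = 0.0972), and was called lower without fiber 2 or pool 1 (0.00586 and 0.0202).

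Sarcomere and glycolysis genes were mostly not called, which does not make them alike between the groups. Every fiber lay above every pool for 19 of 26 fast sarcomere genes and 9 of 22 glycolysis genes, against 16.5% of all genes. For slow genes this held for 1 of 9 tested. Acta1, skeletal actin, took 8.15%, 4.66% and 5.49% of reads in the fibers, against 3.42%, 1.21% and 3.78% in the pools. Its log2 fold change of 1.80 had an SE of 2.03 (edgeR adjusted p = 0.503). Of 26 fast sarcomere genes 2 were called higher, Tnnc2, the fast troponin C, and Myh2, at a median of 1.37. Tnnc2 stood at 122, 273 and 75.8 CPM in the fibers and 22.2, 3.27 and 25.9 CPM in the pools (log2 fold change 3.19 ± 0.75, SE; edgeR adjusted p = 0.00727). Pool 2 was the lowest pool for 25 of the 26. With DESeq2, 14 of the 26 were called higher. Tnni1, slow troponin I, was the call among 9 tested slow genes of 15 listed, at 0.944, 0.717 and 0 CPM against 10.1, 9.43 and 6.18 CPM, and was lost without pool 2 (edgeR adjusted p = 0.061). Slow genes called lower numbered 8 without fiber 2, 5 without fiber 1 or pool 1, 4 without fiber 3 and 2 without pool 3. Glycolysis and glycogen genes numbered 3 called of 22, all higher. Gapdh stood at 4753, 5056 and 2600 CPM in the fibers and 549, 60.4 and 371 CPM in the pools (log2 fold change 3.66 ± 1.10, SE; edgeR adjusted p = 0.0193). That call was lost on leaving out any library but pool 2 (edgeR adjusted p between 0.063 and 0.105). Pgk1, phosphoglycerate kinase, stood at 495, 966 and 285 CPM against 68.6, 14.8 and 80.8 CPM and kept its call with each library left out. Ppp1r3a, which targets a phosphatase to glycogen, lost its call without any library but pool 1 (edgeR adjusted p between 0.053 and 0.123).

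The mix of myosin heavy chains separated fiber 2 from fibers 1 and 3. Of reads on the 4 chains, Myh4, which marks type IIB fibers, held 99.2%, 95.7% and 99.4% in the fibers, against 97.0%, 98.5% and 96.6% in the pools. Myh1, which marks type IIX fibers, held 0.188% (95% exact binomial interval 0.173 to 0.204), 3.55% (3.50 to 3.61) and 0.0943% (0.0810 to 0.109) in the fibers. In the pools it held 2.78% (2.69 to 2.87), 1.03% (0.932 to 1.13) and 2.81% (2.74 to 2.89). The 3 pools lay between fiber 2 and the other fibers. The group means were 1.28% ± 1.97 and 2.21% ± 1.02 (SD, n = 3 each; exact permutation p = 0.4). Intervals cover counting error only. Myh1 had a log2 fold change of 0.25 ± 1.10 (SE; edgeR adjusted p = 0.871) that became -2.86 without fiber 2 (edgeR adjusted p = 0.0347; 0.00163 to 0.996 over all alternatives). Myh2, of type IIA fibers, held 0.572%, 0.788% and 0.523% in the fibers, against 0.221%, 0.309% and 0.539% in the pools, and its call was lost without fiber 2 (edgeR adjusted p = 0.061). Myh7, the slow chain, had 1, 0 and 0 reads in the fibers and 23, 80 and 6 in the pools. It was too low to be tested, and its highest value fell in pool 2.

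Calcium handling, the dystrophin complex and the synapse gave few calls. Every fiber lay above every pool for 9 of 20, 6 of 15 and 5 of 16 genes of these lists, against 16.5% of all genes. Atp2a1, the fast calcium pump, stood at 10820, 9107 and 6923 CPM in the fibers and 1589, 247 and 1291 CPM in the pools (log2 fold change 3.10 ± 1.22, SE; edgeR adjusted p = 0.0591), and was called higher without pool 2 (0.0296). Of 20 triad genes, Mrln, a micropeptide that inhibits that pump, and Cacna1s, the voltage sensor, were called higher, and both were lost without pool 2 (edgeR adjusted p = 0.059 and 0.062). Mrln was also lost without fiber 2 (edgeR adjusted p = 0.084), and Cacna1s without fiber 1 (0.082) or pool 3 (0.085). Cav3, the muscle caveolin, was the call among 15 dystrophin complex genes, and it was lost without any 1 of the 3 fibers (edgeR adjusted p between 0.088 and 0.106). Of 16 neuromuscular junction genes 3 were called higher and 2 lower, or 18.8% and 12.5%, against 8.52% and 27.5% of all genes. The higher count was 5 without pool 1. Chrna1, a subunit of the acetylcholine receptor, stood at 66.7, 123 and 50.6 CPM in the fibers and 18.5, 16.1 and 26.5 CPM in the pools (log2 fold change 1.97 ± 0.51, SE; edgeR adjusted p = 0.00959). The receptor kinase gene Musk stood at 16.0, 9.38 and 38.1 CPM against 3.98, 6.94 and 3.34 CPM, and Rapsn, the clustering protein, lost its call without any 1 fiber or pool 3 (edgeR adjusted p between 0.055 and 0.082). Utrn and Lrp4 were called lower, and both lost the call without fiber 2, fiber 3 or pool 2 (edgeR adjusted p between 0.079 and 0.424). Utrn also lost it without fiber 1 or pool 3 (edgeR adjusted p = 0.147 and 0.059). With the receptor-family density subtracted neither Utrn nor Lrp4 was called (edgeR adjusted p = 0.0757 and 0.0972).

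The greatest rises in single fibers included Srxn1, Ankrd1 and Mustn1, and they were uneven between fibers. Srxn1 encodes sulfiredoxin, which repairs oxidized peroxiredoxins. It stood at 1369, 50.9 and 2002 CPM in fibers 1 to 3, against 14.0, 13.1 and 15.4 CPM in the pools. Its log2 fold change was 6.33 ± 1.18 (SE; edgeR adjusted p = 0.00611). Ankrd1, a stretch-responsive ankyrin repeat protein, stood at 7116, 181 and 4709 CPM in the fibers and 135, 60.2 and 154 CPM in the pools (log2 fold change 5.10 ± 1.31, SE; edgeR adjusted p = 0.00944). Mustn1, a small nuclear protein of the musculoskeletal system, stood at 4466, 194 and 5107 CPM against 106, 39.6 and 114 CPM. Fibers 1 and 3 lay far above the pools and fiber 2 lay above them by less. The same order, with fiber 2 lowest of the fibers, held for Mt3, a metallothionein, Pdpn, the membrane glycoprotein podoplanin, Klf6, a zinc finger factor, Tnfrsf12a, a receptor of the tumor necrosis factor family, and Tmem140. Their log2 fold changes were 5.73, 5.06, 4.46, 4.42 and 4.19. Aimp2, a scaffold of the tRNA synthetase complex, and Mrps34, a mitochondrial ribosomal protein, were highest in fiber 2 and had log2 fold changes of 4.33 and 4.32. Of the 12 genes with the greatest rises, Myod1 and Mpc1 included, all kept their call with each library left out, and Mt3 lost it with limma voom (adjusted p = 0.057).

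The promoter of Srxn1 is shown because that gene had the greatest rise among those named. The 250 bases before its RefSeq start are given for GRCm38.p6, with capitals marking matches to TGANTCA, the AP-1 element.
Srxn1 (chr2:152105274-152105523, plus strand): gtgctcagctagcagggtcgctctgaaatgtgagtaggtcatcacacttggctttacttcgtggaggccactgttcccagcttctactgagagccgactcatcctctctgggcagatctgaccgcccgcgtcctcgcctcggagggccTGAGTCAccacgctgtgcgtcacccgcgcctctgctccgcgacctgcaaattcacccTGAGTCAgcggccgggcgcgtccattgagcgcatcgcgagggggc
The matches lay 102 and 45 bases before the start, and 6.75% of 32851 promoter windows of that length held the motif on either strand. TGACNNNGC, a core form of the antioxidant response element, had no match in this window and was in 10.2% of windows. The AP-1 match at 45 bases is followed by GC, so it differs from TGACNNNGC only in the base after TGA. Other forms of that element were not searched, so its absence is not shown. Of the 12 genes 10 had a promoter in the RefSeq table. TGANTCA was found in Srxn1 alone among them, and TGACNNNGC in Ankrd1, Mpc1 and Klf6. The AP-1 motif was chosen after the letters of this promoter had been seen.

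**Figure D4:**
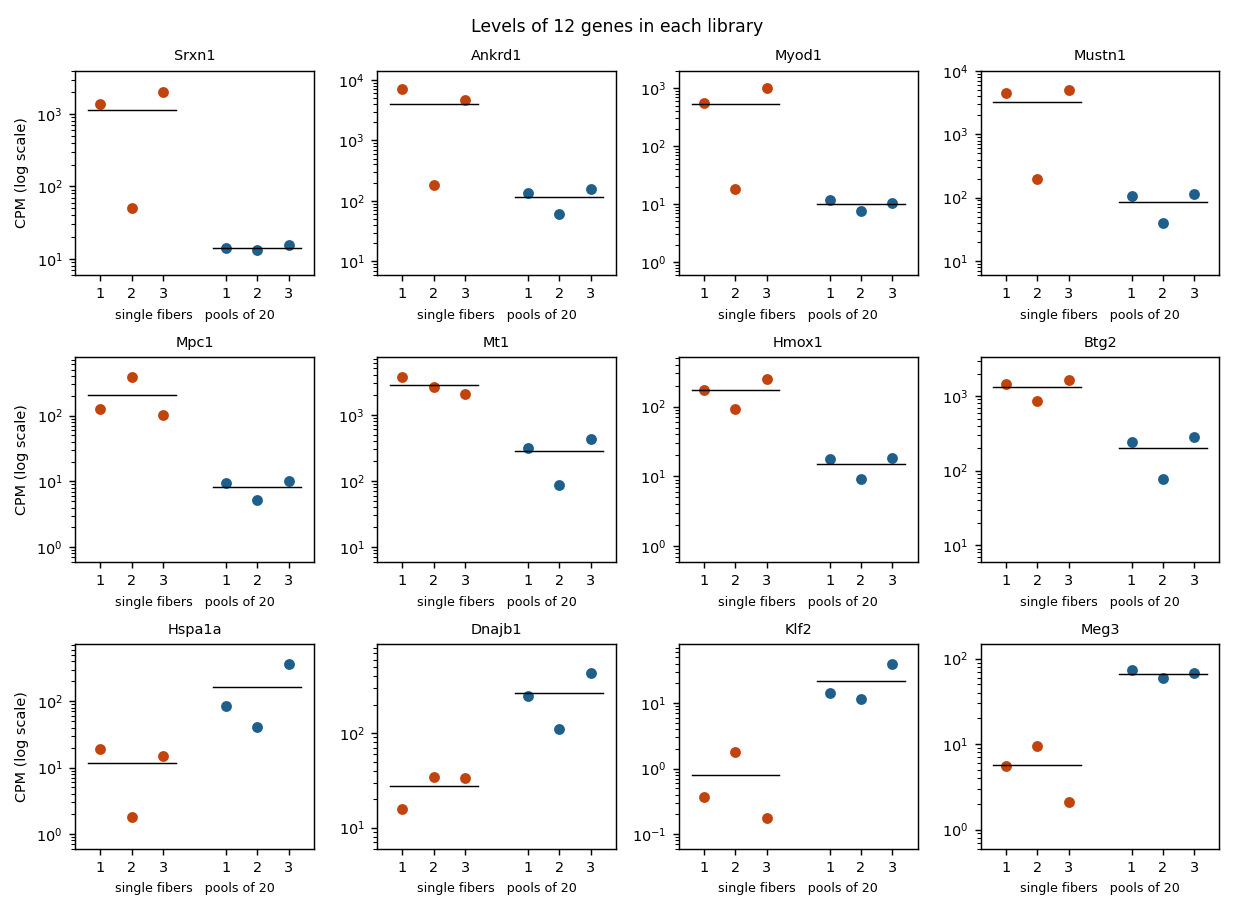
CPM of 12 genes in each library on log axes, single fibers 1 to 3 on the left and pools 1 to 3 on the right, with the group mean as a line. Srxn1, Ankrd1, Myod1 and Mustn1 are high in fibers 1 and 3 and lower in fiber 2, Mpc1, Mt1, Hmox1 and Btg2 are above the pools in every fiber, and Hspa1a, Dnajb1, Klf2 and Meg3 are below them in every fiber.

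Stress genes divided by class. Of 21 heat shock and metal stress genes, 6 were called higher and 4 lower in single fibers. These shares were 28.6% and 19%, against 8.52% and 27.5% of all genes. The higher count was 3 on leaving out any library but pool 2, and the lower count was 2 without fiber 1. The metallothioneins, which bind zinc and copper, rose in all 3 fibers. Mt1 stood at 3663, 2641 and 2056 CPM in the fibers and 319, 87.4 and 434 CPM in the pools (log2 fold change 3.31 ± 0.96, SE; edgeR adjusted p = 0.0163), and Mt2 at 445, 110 and 336 CPM against 32.7, 15.7 and 50.2 CPM. The call of Mt1 was lost on leaving out any library but pool 2 (edgeR adjusted p between 0.056 and 0.091), while Mt2 was called with each library left out. Hmox1, heme oxygenase, stood at 175, 91.5 and 253 CPM in the fibers and 17.7, 9.17 and 18.3 CPM in the pools (log2 fold change 3.52 ± 0.60, SE; edgeR adjusted p = 0.00462). The small heat shock proteins Cryab, Hspb8 and Hspb7, which bind unfolded muscle proteins, were higher as well. Cryab stood at 3589, 1668 and 4560 CPM against 595, 175 and 603 CPM. Its call was lost without any library but pool 2 (edgeR adjusted p between 0.096 and 0.175), and that of Hspb8 on leaving out any 1 library (edgeR adjusted p between 0.054 and 0.128).

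The inducible chaperones of the heat shock response went the other way. Hspa1a, the inducible HSP70, stood at 19, 1.77 and 14.7 CPM in the fibers and 85.6, 41.1 and 359 CPM in the pools (log2 fold change -3.78 ± 0.91, SE; edgeR adjusted p = 0.00747). Hspa1b, its near-identical neighbour with which reads may be shared, stood at 23.4, 2.26 and 12 CPM against 61.7, 27.4 and 324 CPM. Dnajb1, an HSP40 that works with them, stood at 15.6, 34.0 and 33.7 CPM in the fibers and 248, 110 and 436 CPM in the pools (log2 fold change -3.25 ± 0.67, SE; edgeR adjusted p = 0.00727), with a call lost without fiber 1 (edgeR adjusted p = 0.064). Hsp90aa1, the inducible HSP90, stood at 37.7, 43.0 and 43.2 CPM against 139, 57.0 and 205 CPM, and its call was lost without any 1 fiber or pool 3 (edgeR adjusted p between 0.143 and 0.322). No fiber overlapped the pools for these 4 genes. Pool 3, which also held the highest vessel and blood markers, was the highest pool for all 4, and the part of those cells in these values was not tested. Without pool 3 Hspa1a, Hspa1b and Dnajb1 were still called lower.

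Immediate early genes, the first to be transcribed after a stimulus, did not share a direction. Of 32 in the file, 8 were called higher and 7 lower, or 25% and 21.9%, against 8.52% and 27.5% of all genes. The lower share was thus below that of all genes. Their median log2 fold change was 0.29, or -0.35 with scaling on protein-coding genes and -0.13 without fiber 2. Egr3, a zinc finger factor, had no read in any fiber against 1.99, 3.80 and 8.67 CPM in the pools, at least 87.6-fold lower. Klf2, a factor of endothelium and lymphocytes, stood at 0.363, 1.82 and 0.176 CPM in the fibers and 14.2, 11.4 and 39.6 CPM in the pools (log2 fold change -4.72 ± 0.82, SE; edgeR adjusted p = 0.00491). Fosl2, of the AP-1 family, stood at 6.82, 1.38 and 6.06 CPM against 31.4, 17.4 and 57.4 CPM. Btg2, an antiproliferative factor, stood at 1464, 861 and 1646 CPM in the fibers and 244, 77.7 and 285 CPM in the pools (log2 fold change 2.71 ± 0.81, SE; edgeR adjusted p = 0.0189), but was called only with all libraries or without pool 2 (edgeR adjusted p between 0.053 and 0.104 without any other). Myc stood at 58.3, 2.92 and 57.7 CPM in the fibers against 4.68, 3.67 and 3.84 CPM in the pools, so fiber 2 lay below all pools, and its call was lost without pool 2 (edgeR adjusted p = 0.067). Fos stood at 266, 1390 and 307 CPM against 673, 232 and 724 CPM and Egr1 at 1112, 466 and 2163 CPM against 567, 216 and 775 CPM, with overlap for both. Egr1 and Fos were not called (edgeR adjusted p = 0.248 and 0.814). Fosl2, Btg2 and Myc were picked within the list after their values were seen. The higher count was 3 without pool 2. The lower count was 3 without fiber 2 and 4 without fiber 1, fiber 3 or pool 3. Without fiber 2 and pool 2 together the counts were 13 higher and 14 lower, and the median was -0.74.

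Among genes known to rise in wasting or denervated muscle, several were uneven between fibers. Of 23, 9 were called higher and 3 lower, or 39.1% and 13%, against 8.52% and 27.5% of all genes. Trim63, the ubiquitin ligase MuRF1, stood at 1823, 156 and 2248 CPM in the fibers and 451, 161 and 384 CPM in the pools and was not called (edgeR adjusted p = 0.0963). Runx1, a factor induced by denervation, stood at 187, 6.95 and 300 CPM against 7.14, 13.5 and 8.12 CPM (log2 fold change 4.10 ± 0.95, SE; edgeR adjusted p = 0.00727), with fiber 2 just below the lowest pool. Bnip3, a mitophagy receptor, was instead highest in fiber 2, at 22.9, 125 and 34.4 CPM against 6.21, 3.41 and 8.67 CPM. Runx1 and Bnip3 were picked after their values were seen. Klf15, a glucocorticoid target, Myh3, the embryonic myosin heavy chain, and Ddit4, which restrains mTOR, were called lower. Of these 3, 2 exceeded the receptor-family density in the pools. With that density subtracted 1 gene of the list was called lower, and Myh3 and Ddit4 had too few reads to be tested. Ddit4 stood at 0, 0.165 and 0 CPM in the fibers and 1.17, 1.83 and 3.79 CPM in the pools. Without pool 2 the counts were 5 higher and 1 lower, with Myh3 and Ddit4 lost (edgeR adjusted p = 0.088 and 0.051). Klf15 was lost without fiber 1 or pool 3 (edgeR adjusted p = 0.108 and 0.102).

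Long noncoding RNAs held in the nucleus varied widely between fibers. Malat1 stood at 6466, 608 and 12872 CPM in the fibers and 5272, 2048 and 2789 CPM in the pools, and Neat1, the scaffold of paraspeckles, at 3568, 181 and 3855 CPM against 792, 362 and 605 CPM. Neither was called (edgeR adjusted p = 0.55 and 0.127). The imprinted Meg3 was lower in every fiber, at 5.52, 9.60 and 2.11 CPM against 73.4, 58.9 and 68.5 CPM (log2 fold change -3.53 ± 0.57, SE; edgeR adjusted p = 0.00462). Rian and Mirg, from the same imprinted cluster, and Snhg11, which the annotation used types as protein-coding, were called lower too. Mirg and Snhg11 did not exceed the receptor-family density, and Rian and Snhg11 lost their calls without pool 2 (edgeR adjusted p = 0.212 and 0.151). Gas5, a host of small nucleolar RNAs, was the call in the other direction (2 genes without fiber 2), at 330, 201 and 346 CPM against 93.8, 30.4 and 115 CPM, and not without any 1 of the 3 fibers (edgeR adjusted p between 0.058 and 0.119). Rian also lost its call without fiber 1 or fiber 3 (edgeR adjusted p = 0.113 and 0.206). With the receptor-family density subtracted Rian and Mirg were not called (edgeR adjusted p = 0.0743 and 0.0662). Of 18 clock genes Per3, a period gene, was the call, at 17.9, 27.0 and 15.4 CPM against 92.0, 41.6 and 80.2 CPM, and it too was lost without any 1 of the 3 fibers (edgeR adjusted p between 0.082 and 0.304). Xist, the RNA of the inactive X chromosome, stood at 2.40, 0.110 and 0 CPM in the fibers and 0.117, 11.9 and 3.49 CPM in the pools and was not called (edgeR adjusted p = 0.185), except without fiber 1 (0.00255) or pool 1 (0.0465). None of the 5 sex-linked genes was called with all 6 libraries.

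Single fibers detected fewer genes than pools. At equal depth 17479, 13647 and 15678 genes had a read in fibers 1 to 3, against 31141, 48355 and 36684 in pools 1 to 3, with the highest pool, pool 2, also the one with most receptor-family reads; the part of such reads in these numbers was not tested. The means were 15601 ± 1917 and 38727 ± 8787 (SD, n = 3 each; exact permutation p = 0.1). With 10 reads as the minimum the numbers were 8663, 8041 and 9182, against 11287, 29126 and 13618.

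The spread between replicates was measured on 5859 genes of 10 CPM or more after thinning to equal depth. The median SD of log2(CPM + 0.5) was 0.53 between single fibers and 0.61 between pools, and 45.5% of genes had a wider spread between fibers. Some pairs of libraries lay closer together than others. The median absolute log2 difference was 0.436 between fibers 1 and 3, but 0.719 and 0.728 between either of them and fiber 2. It was 0.254 between pools 1 and 3, the lowest of all 6 pairs, and 1.01 and 0.943 between pool 2 and the others. Gene groups differed in where their spread lay. Cytosolic ribosomal protein genes had a median SD of 0.39 between fibers and 1.26 between pools, and none of 75 was wider between fibers. Their spread between pools lay mostly in pool 2, where they summed to 3091 CPM, against 12077 and 13937 CPM in pools 1 and 3. Atrophy and denervation genes had 1.20 and 0.792, immediate early genes 1.13 and 0.80, and nuclear and imprinted long noncoding RNAs 1.15 and 0.684. In all tested genes fiber 2 was the highest fiber for 30.3%, and pool 2 the lowest pool for 34.8%. Among genes called higher these shares were 57.4% and 80.4%. Among genes called lower pool 2 was the highest pool for 85.4%, against 54.9% of all tested genes.

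**Figure D5:**
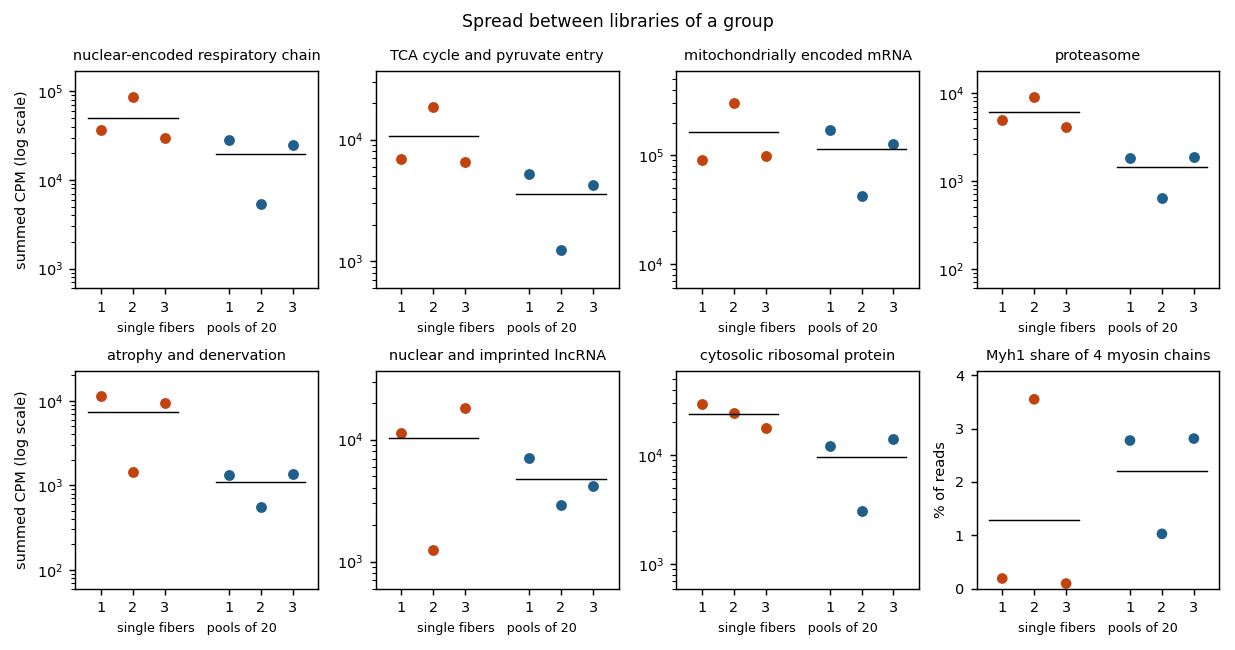
Summed CPM of 7 gene lists (log axes) and the percent of Myh1 among reads on 4 myosin heavy chains (linear axis) in each library, single fibers 1 to 3 on the left and pools 1 to 3 on the right, with the group mean as a line. Fiber 2 is highest for respiratory chain, citric acid cycle, mitochondrial and proteasome genes and for Myh1 at 3.55%, and lowest for atrophy genes and nuclear long noncoding RNAs; pool 2 is the lowest pool in every panel.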

How the data were processed

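The deposited file holds raw read counts per Ensembl gene, not normalized by the authors; per the submitters' processing notes HISAT2, SAMtools and featureCounts were used on GRCm38 (mm10), with versions, strand and multi-mapping settings not given in the sources used here. Of 55573 identifiers, 55480 matched GENCODE vM21, which gave symbols, types and exon lengths. Depth was 4702823 to 27787120 reads per library. Without strand, reads of overlapping and antisense genes cannot be told apart.

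The 3 single fiber and 3 pool libraries were fitted in edgeR 4.0.16 (R 4.3.3) with TMM factors, filterByExpr, glmQLFit and glmQLFTest; calls had a Benjamini-Hochberg adjusted p under 0.05 over all 16978 genes, and log2 fold changes are single fibers over pools. Fits were tested on simulated data. Single values per library were compared by exact permutation. Thinning drew reads without replacement. A fold against 0 reads is a bound at 3 reads over the group. Gene lists, comparison and members were chosen with earlier results of these data known. Genes were named by a rule: the 12 greatest changes in each direction among protein-coding calls with a mean of at least 10 CPM, no overlap between groups and a read density above the 99th percentile of receptor-family genes; the 5 most read genes of each group; the 3 highest members and 2 most changed calls of each list; and Myh1, Myh2, Myh4, Myh7, Xist and Gm10800. Not all of these are printed, and other members were named after their values were seen. Alternatives were RLE and upper-quartile factors, TMM on protein-coding genes, no filter and a strict filter, DESeq2 1.42.0, limma voom 3.58.1, all 12 libraries in the fit, a replicate block, protein-coding genes only, robust dispersion, each library left out and, chosen after seeing the data, receptor-family density subtracted and fiber 2 and pool 2 left out together. Libraries were checked for duplicates and none was a near copy. Python 3.11.15 with scipy 1.17.1 was used for the rest.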

Additional observations from a re-analysis of the deposited data

How the results depend on the processing

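The number of genes called depended on the filter on low counts, on the subtraction of reads spread over the genome and, most of all, on the replicate block. Against 1446 genes higher and 4677 lower in single fibers, no filter gave 15348 calls, 14302 of them lower, and the strict filter 1296, with 510 higher and 786 lower and a median log2 fold change of 0.02. With the receptor-family density subtracted there were 1538 calls, 636 higher and 902 lower. Scaling on protein-coding genes gave 665 higher calls and all 12 libraries in the fit gave 2206. The share of calls that were higher was 23.6%, against 10.4% with scaling on protein-coding genes, 6.82% without a filter, 39.4% with the strict filter and 41.4% after the subtraction. Leaving out each library in turn gave 3931 to 10714 calls, with 919 to 1540 higher and 3012 to 9174 lower. The causes were not tested beyond the number of genes and samples in each fit.

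Libraries with the same number did not vary together: the correlation of their deviations from the group means was -0.166, -0.178 and -0.03, so the numbers are not taken as pairs. With a replicate block 7 genes were called, 0 higher and 7 lower.

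Of 112 genes followed by name, 98 were called, and none of these changed direction under any alternative that gave them a value. Leaving the block aside, 56 were called under every alternative that gave them an adjusted p. Some of the 56 had too few reads or no adjusted p in some alternatives, which were not counted against them. The uncalled Fos and Myh1 became negative. Fos had a log2 fold change of -0.35 with scaling on protein-coding genes, -0.27 with the strict filter, -0.17 with the replicate block, -0.16 after the subtraction, -0.66 without fiber 2 (to 1.03 over the libraries left out) and -1.28 without fiber 2 and pool 2. Myh1 had -0.30, -0.22, -2.17, -0.01, -2.86 (to 1.18) and -3.60 in the same order, and -1.25 with limma voom. With 5 CPM as the offset the median SD was 0.444 between single fibers and 0.47 between pools, against 0.53 and 0.61. With genes of at least 5 CPM it was 0.568 and 0.577, so the gap between the groups nearly closed. The mean number of genes detected, single fibers minus pools, was -23125, and -9382 with 10 reads as the minimum. Depth limits values near 1 read, and intervals cover counting error only.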
